A study of Mus musculus with 2 samples.

Results

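The ATF4 axis, the cytosolic tRNA synthetases and the genes of amino acid supply are described here through 41 genes chosen by name, from 34745 gene rows in all, and each was found on 1 row. They fall into 12 transcription factors and stress genes, 13 cytosolic tRNA synthetases, 9 genes of serine and asparagine synthesis and 7 amino acid transporters. The integrated stress response is the programme by which cells answer amino acid shortage, misfolded protein and other strains. Kinases, among them GCN2 for uncharged tRNA, phosphorylate the translation initiation factor eIF2, which lowers protein synthesis in general while the mRNA of the transcription factor ATF4 is translated more. ATF4, paired with C/EBP proteins, then raises transcription of genes for amino acid synthesis, amino acid uptake and tRNA charging, and with lasting stress those of CHOP and TRIB3. Activated T cells also raise amino acid transporters and the serine and one-carbon enzymes when they grow and divide.

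The sequenced RNA came from regulatory T (Treg) cells, sorted out of the spleens of C57BL/6 mice at 2 weeks of age as CD4+ cells that carry the YFP of the Foxp3Cre allele. The knockout library came from poh1fl/fl Foxp3Cre+ mice, in which Cre driven by Foxp3 deletes the floxed poh1 alleles in Foxp3-expressing cells, and the wild-type library came from poh1+/+ Foxp3Cre+ mice, which carry the same Cre allele. There was 1 library per genotype, and the labels do not say whether cells of several mice were pooled. POH1 is the product of Psmd14, the deubiquitinase of the proteasome lid, and the comparison asks how its loss alters Treg gene expression.

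With 1 library per genotype there is no replicate check and no test, and genotype, mouse and library cannot be told apart. Each ratio of knockout to wild type is followed by its 95% counting interval in parentheses, an exact conditional-binomial range that covers counting error only. Genes that reached 1 CPM (count per 1000000 of the scaled library size) in at least 1 library are termed measured, and a measured gene was called higher or lower where no value in its interval came within 1.5-fold of equality. Psmd14 had 463 counts (31.8 CPM) in the knockout library and 1619 counts (89.4 CPM) in the wild-type library, a 2.81-fold lower level (2.53 to 3.12) in the direction of the label. The counts summed to 14544212 in the knockout and 18124611 in the wild-type library. Foxp3 and Cd4, which define the sorted cells, were at 1073 and 724 CPM in the knockout library and at 671 and 688 CPM in the wild-type library.

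The DNA element through which ATF4 and C/EBP act is known as the C/EBP-ATF response element, and its core is commonly written TGATGNAA. A search of both strands found these letters between 250 bases before and 50 bases after the annotated start of 12 of the 33 members with a RefSeq promoter entry (GRCm38.p6), or 36.4%, against 4.51% of the 27025 genes with such an entry. Many members were chosen as known ATF4 targets, so this share is a description of the list. The matches were in Trib3, Chac1, Nupr1, Aars, Gars, Iars, Tars, Yars, Asns, Pycr1, Slc7a11 and Slc1a4. Of the 14 matches, 10 lay before the RefSeq start and 4 after it, and 10 read TGATGCAA, 3 TGATGAAA and 1 TGATGTAA. The sites below are those of the member with the highest ratio (Trib3), of the member with the lowest (Asns), of the synthetases with a match and a ratio below 1 (Gars, Iars, Tars, Yars), of Chac1, which had no counts, and of Slc7a11, which has a match on each strand. They were chosen after the values were seen, and those of Aars, Nupr1, Pycr1 and Slc1a4 are not printed. Each is 30 bases read 5′ to 3′ on the strand that holds the motif, with the motif in capitals.
Trib3 (chr2:152344028-152344057, plus strand): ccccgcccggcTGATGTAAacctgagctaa
Asns (chr6:7693214-7693243, minus strand): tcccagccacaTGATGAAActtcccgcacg
Gars (chr6:55037960-55037989, minus strand): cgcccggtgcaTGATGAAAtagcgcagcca
Iars (chr13:49682126-49682155, minus strand): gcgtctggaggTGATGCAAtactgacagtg
Tars (chr15:11399655-11399684, plus strand): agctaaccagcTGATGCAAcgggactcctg
Yars (chr4:129189895-129189924, plus strand): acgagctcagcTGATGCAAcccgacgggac
Chac1 (chr2:119351038-119351067, minus strand): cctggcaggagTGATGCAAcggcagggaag
Slc7a11, upstream match (chr3:50443661-50443690, minus strand): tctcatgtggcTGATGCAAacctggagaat
Slc7a11, downstream match (chr3:50443642-50443671, plus strand): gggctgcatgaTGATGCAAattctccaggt

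Counted from the RefSeq start, the motif of Trib3 began at base 15 after it and that of Asns at base -23. The GENCODE gene ends given with these genes differ from the RefSeq starts, and against them the motif of Trib3 lies before the gene and that of Asns within it. A match is a run of letters and not a measured binding site. Among the 12 members with a match, 9 were measured, 1 was called higher (Trib3) and 1 lower (Asns), and their log2 ratios spanned -1.80 to 2.58 with a median of -0.26. The 21 members with an entry and no match were all measured, with 1 called higher (Ddit4), 4 lower and a median of -0.46. Members with and without the letters were thus found on both sides. Over all measured genes, 9.58% were called higher and 12.3% lower. These counts are small, and a difference between members with and without a match was not tested. Cars, Lars, Nars, Vars, Wars, Slc7a5, Slc1a5 and Slc38a1 had no entry. Among genes of the pathway that are not members, 0 of 8 other cytosolic synthetase and scaffold genes and 0 of 14 mitochondrial synthetase genes held the letters, and 5 of 16 further ATF4 target genes did. So did 1 of 11 genes of eIF2 kinases and initiation factors and 1 of 16 other amino acid and one-carbon genes. The letters were also in 1 of 14 other amino acid transporters and 1 of 23 genes of amino acid sensing.

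Among the members, 5 genes of serine and asparagine synthesis and 3 amino acid transporter genes were called lower in the knockout library. Wars was the 1 synthetase member called higher, and Trib3 and Ddit4 were the stress genes called higher. Of the 41 members, 38 were measured. Of these, 3 were called higher and 8 lower, or 7.89% and 21.1%, where 9.58% of all 13464 measured genes were called higher and 12.3% lower (21.9% in either direction). The share called higher is thus near that of all genes. The median log2 ratio of the measured members was -0.40, against -0.01 over all measured genes, and 27 of the 38 lay below 0. Summed over all 41 members the level was 3404 CPM in the knockout and 4184 CPM in the wild-type library. In bulk RNA, fewer cells of a type and less RNA per cell cannot be told apart.

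**Figure D1:**
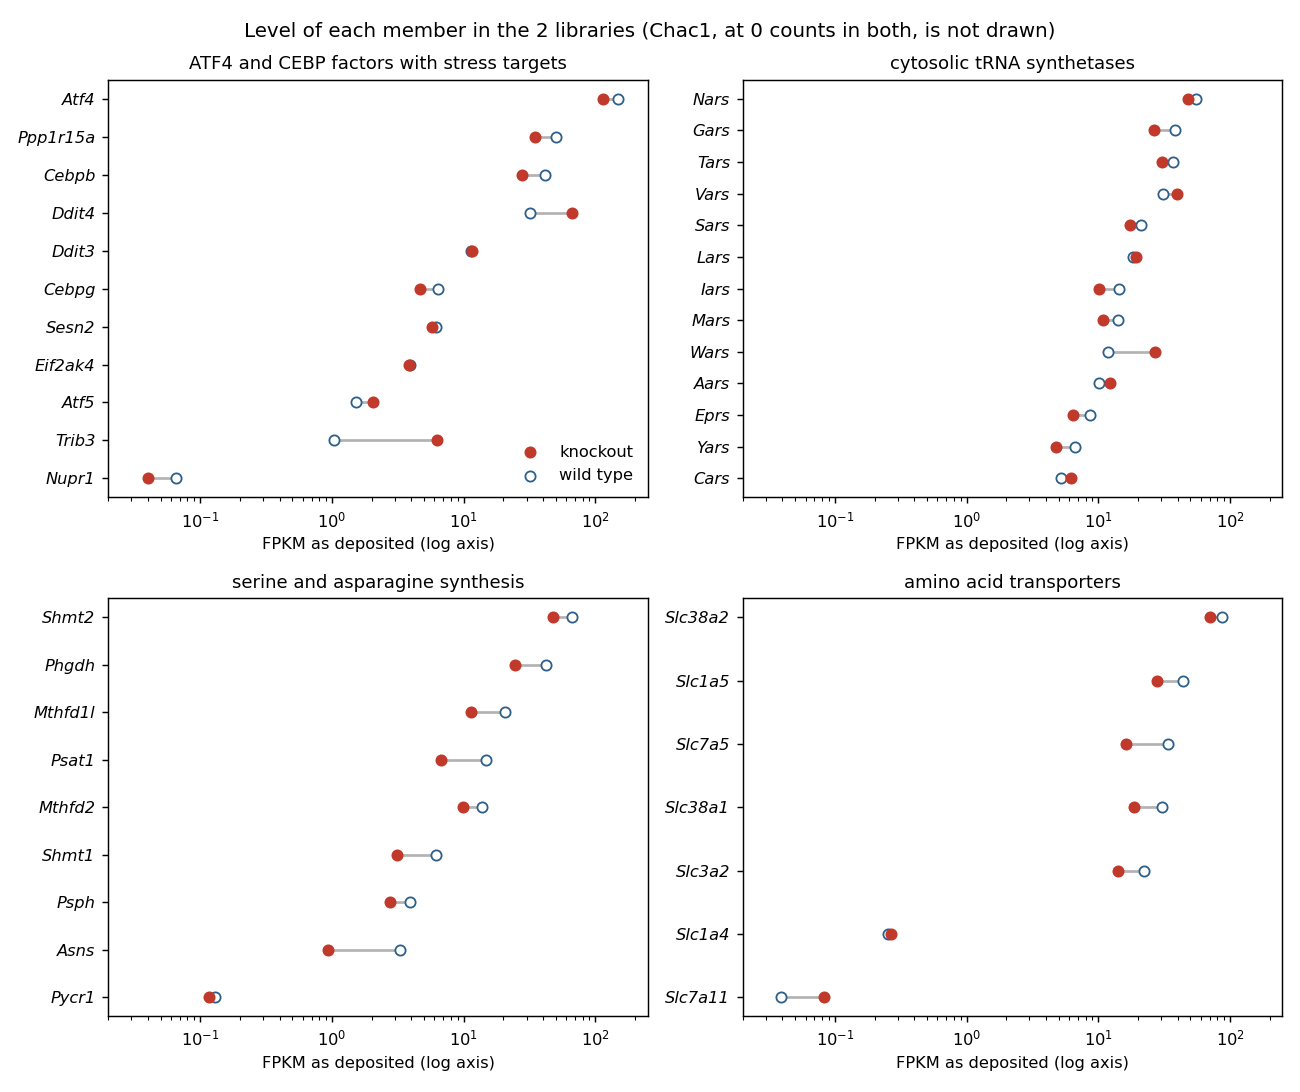
Level of each member in FPKM (counts scaled by gene length and library size, as the authors deposited them, log axis), with the knockout library as filled red points and the wild-type library as open blue points, in 1 panel per class. Chac1, at 0 in both libraries, is not drawn. All 9 genes of serine and asparagine synthesis lie to the left in the knockout library, while Trib3, Ddit4 and Wars lie to the right by the widest margins among members above 1 FPKM in both libraries.

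None of the transcription factor genes of the axis was called higher or lower. Atf4 had 2846 counts (196 CPM) in the knockout and 4625 counts (255 CPM) in the wild-type library, a ratio of 0.766 (0.731 to 0.803) that did not pass the rule. Its level, 114 and 148 FPKM in the knockout and wild-type libraries, was the highest per length of the 12 genes of the class in both. ATF4 is controlled largely at translation and protein turnover, which RNA counts do not measure. Cebpb, the gene of the partner C/EBP beta, was at 41.9 CPM in the knockout and 62.5 CPM in the wild-type library, a ratio of 0.67 (0.606 to 0.74). Cebpg, whose protein C/EBP gamma pairs with ATF4, was at 35.8 CPM in the knockout and 49.1 CPM in the wild-type library, a ratio of 0.729 (0.653 to 0.813). Neither passed the rule, although both intervals lay below 1, as that of Atf4 did. Exons of Cebpb overlap those of Tmem189 over 20.7% of their length, and counts without strand cannot separate overlapping genes.

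Atf5, a close relative of Atf4 that is likewise controlled at translation, had 95 counts (6.53 CPM) in the knockout and 88 counts (4.86 CPM) in the wild-type library. Its ratio of 1.34 (0.995 to 1.82) had an interval that held 1. Ddit3, the gene of CHOP, was at 26.7 CPM in the knockout and 26.1 CPM in the wild-type library, a ratio of 1.02 (0.893 to 1.17). At this depth a difference in Ddit3 beyond 1.17-fold higher or 1.12-fold lower lay outside the counting interval. Exons of Ddit3 overlap other gene records, Mars among them, over 10.9% of their length. Eif2ak4, the gene of GCN2, was at 33.3 CPM in the knockout and 34.05 CPM in the wild-type library, a ratio of 0.977 (0.866 to 1.1), and the sign of its log2 ratio changed with the scaling.

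Trib3 had the highest ratio of all members. It encodes a pseudokinase induced by ATF4 and CHOP that dampens ATF4 activity and AKT signalling. Trib3 (chromosome 2, 152337422 to 152344032, minus strand, mm10, protein-coding) had 290 counts (19.9 CPM) in the knockout and 60 counts (3.31 CPM) in the wild-type library, 6.02-fold higher (4.55 to 8.09). Only 167 of 13464 measured genes had a higher log2 ratio. Per length, Trib3 was at 0.541 times the level of Ddit3 in the knockout library and at 0.0921 times in the wild-type library. Against Asns, the member with the lowest ratio, Trib3 was at 6.73 times the FPKM in the knockout and at 0.320 times in the wild-type library. The order of this pair turned over, but a wide shift follows from pairing the highest member with the lowest. No exon of Trib3 is shared with another annotated gene.

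Ddit4, the gene of REDD1, which restrains the growth kinase mTORC1, was the other stress gene called higher. Ddit4 (chromosome 10, 59949669 to 59951834, minus strand) had 1616 counts (111 CPM) in the knockout and 978 counts (53.97 CPM) in the wild-type library, 2.06-fold higher (1.90 to 2.23). No other gene of this group was called. Sesn2, which encodes a leucine sensor that also restrains mTORC1, was at 20.00 CPM in the knockout and 21.6 CPM in the wild-type library, a ratio of 0.927 (0.794 to 1.08). Ppp1r15a, the gene of GADD34, the phosphatase subunit that reverses eIF2 phosphorylation, was at 192 CPM in the knockout and 277 CPM in the wild-type library, a ratio of 0.696 (0.664 to 0.729) that did not pass the rule. Chac1, a glutathione-degrading enzyme gene and a sensitive ATF4 and CHOP target, had 0 counts in both libraries. A count of 0 allows a level of up to 0.206 CPM in the knockout and 0.166 CPM in the wild-type library (3 counts). Nupr1, a stress-induced chromatin protein gene, had 3 counts in the knockout and 6 in the wild-type library, too few to compare. In this class of 12 genes, 10 were measured, with a median log2 ratio of -0.07. Of these, 2 (20.0%) were called higher and 0 lower, against 9.58% and 12.3% of all measured genes.

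As with the gene of GCN2, none of the genes of the other eIF2 kinases was called. Eif2ak1 (HRI, which responds to haem lack and mitochondrial stress) had a ratio of 0.913 (0.850 to 0.981), Eif2ak3 (PERK, of the endoplasmic reticulum) one of 1.06 (0.961 to 1.17) and Eif2ak2 (PKR, of double-stranded RNA) one of 1.23 (1.13 to 1.34). In this list of 14 kinases, eIF2 and eIF2B subunits and regulators, 1 gene was called higher (7.14%) and 0 lower, with a median of -0.08. The shares over all measured genes were 9.58% higher and 12.3% lower. The gene called higher was Impact, which encodes an inhibitor of GCN2 activation, at 85.8 CPM in the knockout and 38.7 CPM in the wild-type library, 2.22-fold higher (2.02 to 2.44). Eif2s1, the eIF2 alpha subunit that the kinases phosphorylate, was at 78.8 CPM in the knockout and 124.5 CPM in the wild-type library, a ratio of 0.633 (0.589 to 0.68).

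Of 19 further ATF4 target genes outside the members, 14 were measured, with a median log2 ratio of -0.53 and 10 below 0. Of the 14, 4 (28.6%) were called lower and 1 (7.14%) higher, against 12.3% and 9.58% of all measured genes. The sum over the list had the other direction, at 602 CPM in the knockout and 574 CPM in the wild-type library, with Sqstm1 the most abundant. Gpt2, an alanine aminotransferase gene, was at 3.99 CPM in the knockout and 9.71 CPM in the wild-type library, 2.44-fold lower (1.80 to 3.34). The translation repressor gene Eif4ebp1 was 2.35-fold lower (1.73 to 3.24) and the stress cytokine gene Gdf15 2.5-fold lower (1.71 to 3.72). Jdp2 was the remaining gene called lower. Sqstm1, the gene of the autophagy receptor p62, which NRF2 also induces, was called higher, at 335 CPM in the knockout and 212.5 CPM in the wild-type library, 1.58-fold higher (1.51 to 1.65). Atf3, another stress-induced factor gene, was at 7.35 CPM in the knockout and 10.98 CPM in the wild-type library, a ratio of 0.67 (0.524 to 0.851).

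**Figure D2:**
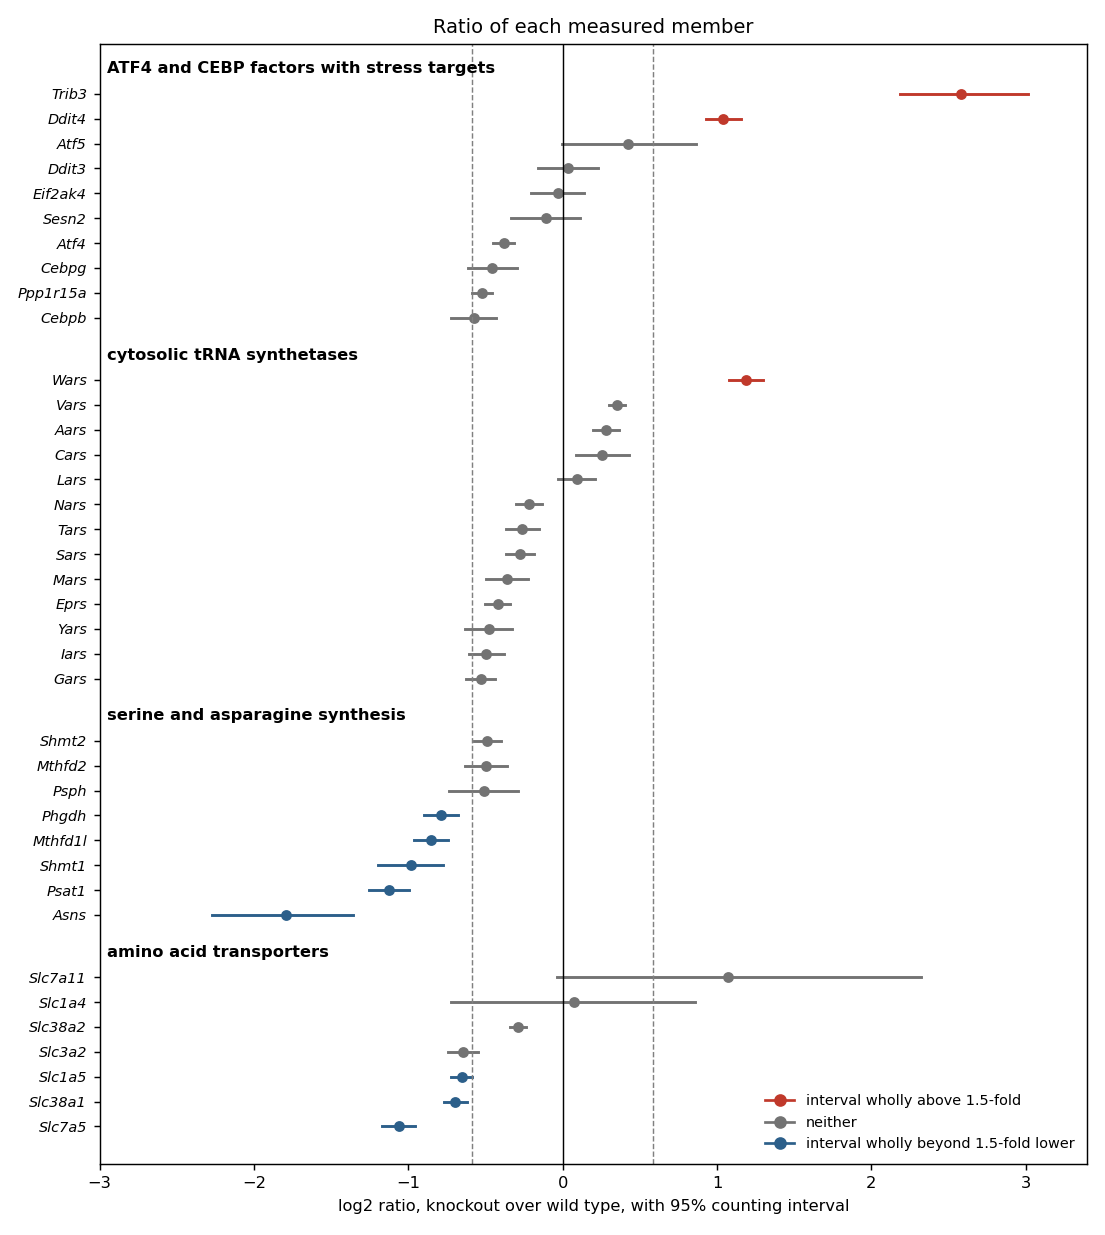
log2 ratio of knockout to wild type for the 38 measured members (points) with 95% counting intervals (bars), sorted within each class, with dashed lines at 1.5-fold either way. Red marks the 3 members with an interval wholly above 1.5-fold (Trib3, Ddit4, Wars), blue the 8 with one wholly beyond 1.5-fold lower, all of them in the synthesis and transporter classes, and grey the other 27.

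Aminoacyl-tRNA synthetases load each tRNA with its amino acid, and many cytosolic ones are ATF4 targets. All 13 members of this class were measured, and their sum differed by less than its counting interval, at 1497 CPM in the knockout and 1508 CPM in the wild-type library, a ratio of 0.993 (0.975 to 1.01). Of the 13, 1 was called higher (7.69%, against 9.58% of all measured genes) and 0 lower (against 12.3%). The median log2 ratio was -0.26, with 8 members below 0.

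Wars, the tryptophanyl-tRNA synthetase gene, was the synthetase called higher. Besides charging tRNA it is known as a gene that interferon gamma induces. Wars (chromosome 12, 108860030 to 108894174, minus strand) had 1906 counts (131 CPM) in the knockout and 1044 counts (57.6 CPM) in the wild-type library, 2.27-fold higher (2.11 to 2.45). Its level was 27.2 FPKM in the knockout and 11.9 FPKM in the wild-type library, which is 5.74 times the FPKM of Yars, the tyrosine enzyme gene of the same structural class, in the knockout and 1.81 times in the wild-type library. Among the other 12 synthetases, log2 ratios spanned -0.53 to 0.35, with 4 above 0 and 8 below. Without Wars the sum was 1366 CPM in the knockout and 1450 CPM in the wild-type library, a ratio of 0.942 (0.924 to 0.959).

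The other synthetases lay on both sides of 1. Vars, for valine, was at 385 CPM in the knockout and 302 CPM in the wild-type library, a ratio of 1.28 (1.23 to 1.32). Aars, for alanine, had a ratio of 1.22 (1.15 to 1.29) and Cars, for cysteine, one of 1.19 (1.06 to 1.34), and both intervals lay above 1 without passing the rule. Lars, for leucine, had a ratio of 1.06 (0.981 to 1.16), with an interval that held 1. Exons of Aars overlap those of Exosc6 and of a predicted gene over 15.1% of their length.

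Gars, for glycine, lay at the other end of the class, at 96.7 CPM in the knockout and 139.9 CPM in the wild-type library, a ratio of 0.691 (0.647 to 0.738). Iars, for isoleucine, and Yars, for tyrosine, had ratios of 0.71 (0.656 to 0.768) and 0.717 (0.644 to 0.798). Eprs, whose protein carries both the glutamate and the proline enzyme, had a ratio of 0.747 (0.706 to 0.79), and Mars, for methionine, one of 0.779 (0.71 to 0.854). Sars, Tars and Nars, for serine, threonine and asparagine, ranged in ratio between 0.827 and 0.859. All 8 intervals lay below 1, and none passed the rule. Gars, Iars, Tars and Yars hold the ATF4 letters shown above, and Aars, which lay on the other side of 1, was also among the members with a match.

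Among 10 other cytosolic synthetase and scaffold genes, 0 were called higher and 1 lower, with a median of -0.27, against -0.26 for the 13 members. The gene called lower was Aimp2, a scaffold of the multi-synthetase complex, at 12.9 CPM in the knockout and 24.7 CPM in the wild-type library, 1.91-fold lower (1.61 to 2.28). Over the 11 genes of that complex, a grouping made after the values were seen, the median was -0.40. The same 1 gene was called lower (9.09%, near the 12.3% of all measured genes). Among 17 mitochondrial synthetases the median was -0.10, with 1 called higher (5.88%) and 0 lower, against 9.58% and 12.3% of all measured genes. The gene called higher was Pars2, the mitochondrial proline enzyme, which had 112 counts in the knockout and 52 in the wild-type library, 2.68-fold higher (1.91 to 3.80).

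Of the 9 genes of serine and asparagine synthesis, 8 were measured, and all 8 had a log2 ratio below 0 (between -1.80 and -0.49). The median was -0.82, a 1.77-fold lower level. The calls were 5 lower (62.5%, against 12.3% of all measured genes) and 0 higher (against 9.58%). The class summed to 379 CPM in the knockout and 635 CPM in the wild-type library, 1.67-fold lower (1.62 to 1.73). The exception to measurement was Pycr1, a proline synthesis gene, with 8 counts in the knockout and 11 in the wild-type library.

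Asns, the gene of asparagine synthetase and the classic target of amino acid shortage, had the lowest ratio of all members. Asns (chromosome 6, 7675169 to 7693254, minus strand) had 51 counts (3.51 CPM) in the knockout and 222 counts (12.3 CPM) in the wild-type library, 3.49-fold lower (2.57 to 4.84). Asns and Trib3, both known ATF4 targets, thus lay at the 2 ends of the members.

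The 3 enzymes that make serine from a glycolytic intermediate act in the order PHGDH, PSAT1, PSPH. Phgdh was at 69.8 CPM in the knockout and 120.6 CPM in the wild-type library, 1.73-fold lower (1.6 to 1.86). Psat1 was at 46.7 CPM in the knockout and 102 CPM in the wild-type library, 2.18-fold lower (2.00 to 2.38). Psph was at 17.7 CPM in the knockout and 25.2 CPM in the wild-type library, a ratio of 0.702 (0.60 to 0.82) that did not pass the rule. All 3 were thus below 1, with Psat1 farthest from it. Exons of Psph overlap those of Cct6a over 10.4% of their length.

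Serine is then split into glycine and a one-carbon unit, which feeds nucleotide synthesis. Shmt1, the cytosolic serine hydroxymethyltransferase, was at 17.8 CPM in the knockout and 35.2 CPM in the wild-type library, 1.98-fold lower (1.71 to 2.29). Shmt2, its mitochondrial counterpart, was at 110.1 CPM in the knockout and 154 CPM in the wild-type library, a ratio of 0.713 (0.67 to 0.758). Per length Shmt2 was at 15.3 times the FPKM of Shmt1 in the knockout and 10.9 times in the wild-type library. In the mitochondrial one-carbon pathway, Mthfd1l, which releases formate, was 1.81-fold lower (1.67 to 1.95), at 64.5 CPM in the knockout and 116 CPM in the wild-type library. Mthfd2, the step before it, had a ratio of 0.709 (0.646 to 0.778), which did not pass the rule.

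Of 22 other amino acid and one-carbon genes, 21 were measured, with a median of -0.47. Called lower were 7 (33.3%) and called higher 1 (4.76%), against 12.3% and 9.58% of all measured genes. Odc1, the first enzyme of polyamine synthesis, was at 64.96 CPM in the knockout and 337 CPM in the wild-type library, 5.19-fold lower (4.84 to 5.56). Bcat1, a branched-chain aminotransferase gene, was 2.99-fold lower (2.39 to 3.77). Gls2, a glutaminase gene, had 0 counts in the knockout and 25 in the wild-type library. It was 6.69-fold lower when the knockout level is set at the floor of 3 counts, and its counting interval reached down to 5.05-fold lower. The median of the list is the same with Gls2 at that bound. Mthfd1, Pycrl and Tyms, which makes thymidylate for DNA, were also among the genes called lower. Prodh, which degrades proline, was called higher at 2.13-fold (1.63 to 2.8).

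Genes of dividing cells were lower as well, where 12.3% of all measured genes were called lower. All 14 of 14 such genes were called lower, with log2 ratios of -2.27 to -0.67 and a median of -1.42, and they summed to 1185 CPM in the knockout and 2985 CPM in the wild-type library. Mki67, the most abundant of them, was at 344 CPM in the knockout and 1125 CPM in the wild-type library, and none was at 0. B cell markers were also lower in 9 of 9, at a sum of 40.97 CPM in the knockout and 151 CPM in the wild-type library, with Cd79b the most abundant. Erythroid and megakaryocyte markers were lower in 8 of 10 measured (160.6 CPM in the knockout, 292 CPM in the wild-type library, Pf4 at 0 in both), a sum led by Tfrc, which dividing lymphocytes express too. Neutrophil markers were lower in 4 of 5 measured (5.64 CPM in the knockout, 17.7 CPM in the wild-type library, with Ngp the most abundant, S100a8 and Camp at 0 in the knockout library and Elane at 0 in both). Their part in the lower synthesis and transporter genes was not tested.

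The remaining marker lists went both ways, where 9.58% of all measured genes were called higher and 12.3% lower. CD8 T and NK cell markers were higher in 3 of 5 measured, at a sum of 59.4 CPM in the knockout and 23.3 CPM in the wild-type library, with Cd8a the most abundant, Ncr1 at 0 in the knockout library and Klre1 at 0 in both. Monocyte, macrophage and dendritic cell markers summed to 255 CPM in the knockout and 211 CPM in the wild-type library, with 1 of 13 higher (Csf1r, the most abundant), 3 lower and Xcr1 at 0 in the knockout library. Stromal and endothelial markers summed to 189.9 CPM in the knockout and 175 CPM in the wild-type library, nearly all from Pecam1, with 2 of 4 measured lower, Pdgfrb at 0 in the knockout library and Col3a1 and Dcn at 0 in both. T cell markers summed to 3043 CPM in the knockout and 3857 CPM in the wild-type library, with 1 of 8 lower (Cd28), and Treg markers to 4435 and 3887 CPM in the knockout and wild-type libraries, with 3 of 6 higher and 2 lower. The Treg markers called higher were Foxp3, Il2ra (the most abundant) and Gpr83, and those called lower were Ikzf2 and Ctla4. Whether any of these lists bears on Trib3, Ddit4 or Wars was not tested.

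**Figure D3:**
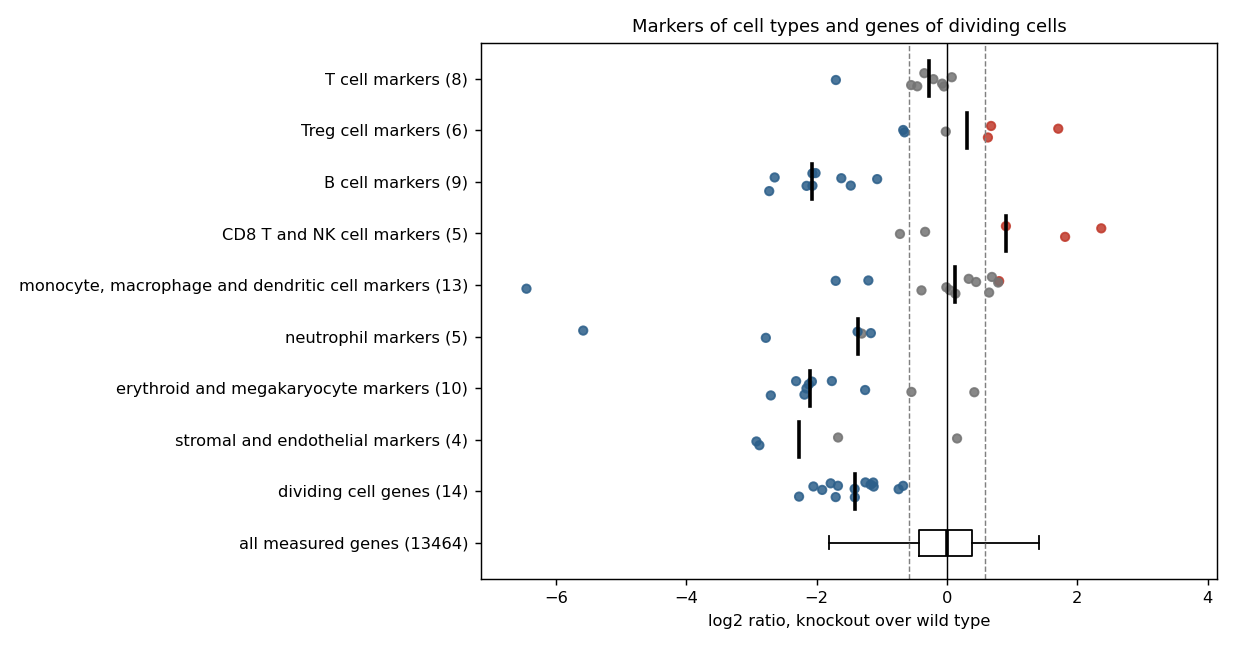
log2 ratio of knockout to wild type for the measured genes of each marker list (points, number in brackets), with black bars at list medians and dashed lines at 1.5-fold either way. Red and blue mark genes called higher and lower, and the box with whiskers gives the quartiles and the 5th to 95th percentiles of all measured genes. All 14 genes of dividing cells and all 9 B cell markers lie beyond 1.5-fold lower. Points left of -5 are genes at 0 counts in the knockout library, whose place depends on the 0.5 counts added.

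Of the 7 amino acid transporters, all measured, 5 lay below 0, and the median log2 ratio was -0.65, a 1.56-fold lower level. Called lower were 3 (42.9%) and called higher 0, against 12.3% and 9.58% of all measured genes. The class summed to 845 CPM in the knockout and 1253 CPM in the wild-type library, 1.48-fold lower (1.45 to 1.52).

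Slc7a5 encodes LAT1, the importer of leucine and other large neutral amino acids that activated T cells depend on. Slc7a5 (chromosome 8, 121881150 to 121907694, minus strand) had 1010 counts (69.4 CPM) in the knockout and 2628 counts (145 CPM) in the wild-type library, 2.09-fold lower (1.94 to 2.25). Slc3a2 encodes CD98, the heavy chain that carries LAT1 to the surface, and was at 94.1 CPM in the knockout and 147 CPM in the wild-type library, a ratio of 0.639 (0.598 to 0.682) that did not pass the rule. Per length, Slc7a5 was at 1.14 times the FPKM of Slc3a2 in the knockout and at 1.52 times in the wild-type library.

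Glutamine and small neutral amino acids enter through the other abundant members. Slc1a5, the ASCT2 glutamine transporter gene, had 2800 counts (192 CPM) in the knockout and 5490 counts (303 CPM) in the wild-type library, 1.57-fold lower (1.5 to 1.65). Slc38a1, the SNAT1 gene, had 2288 counts (157 CPM) in the knockout and 4616 counts (255 CPM) in the wild-type library, 1.62-fold lower (1.54 to 1.70). With another scaling, by the upper quartile of counts, neither of these calls held. Slc38a2, the SNAT2 gene, which amino acid shortage induces, was at 328 CPM in the knockout and 401 CPM in the wild-type library, a ratio of 0.819 (0.789 to 0.849). It was the most abundant transporter of the class per length in both libraries, at 70.96 FPKM in the knockout and 86.6 FPKM in the wild-type library.

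The 2 scarce members of the class had intervals that held 1. Slc7a11, the cystine importer gene that ATF4 and NRF2 induce, had 19 counts (1.31 CPM) in the knockout and 11 counts (0.607 CPM) in the wild-type library, a ratio of 2.15 (0.973 to 5.0). It reached the level for being measured through the knockout library alone. Slc1a4, the ASCT1 gene, had 27 and 32 counts in the knockout and wild-type libraries, a ratio of 1.05 (0.606 to 1.81).

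Other amino acid transporters went both ways. Of 18 genes, 17 were measured, with 3 called higher (17.6%), 2 lower (11.8%) and a median of -0.35. Over all measured genes 9.58% were called higher and 12.3% lower, so the share called lower was near that of all genes. Those called higher were Slc36a1 (51.2 CPM in the knockout, 19.5 CPM in the wild-type library, 2.63-fold higher, 2.31 to 2.99), Slc43a1 (2.21-fold, 1.91 to 2.56) and Slc38a9 (1.70-fold, 1.56 to 1.85). The proteins of Slc36a1 and Slc38a9 sit in the lysosomal membrane and act in amino acid sensing by mTORC1, while Slc43a1 encodes a large neutral amino acid transporter. Slc7a8, the LAT2 relative of LAT1, was at 2.41 CPM in the knockout and 8.72 CPM in the wild-type library, 3.62-fold lower (2.5 to 5.39). Slc43a3, the other gene called lower, was 1.92-fold lower (1.69 to 2.19). It was listed by its gene family and is not known to carry amino acids.

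Genes of amino acid sensing upstream of mTORC1 lay close to all genes. Of 26 genes, all measured, 1 was called higher (3.85%) and 2 lower (7.69%), with a median of 0.09. The shares over all measured genes were 9.58% higher and 12.3% lower. Wdr59, of the GATOR2 complex, was at 102.8 CPM in the knockout and 41.2 CPM in the wild-type library, 2.5-fold higher (2.28 to 2.73). The Rag GTPase gene Rragb had 27 counts in the knockout and 152 in the wild-type library, 4.52-fold lower (2.99 to 7.08), and the Ragulator gene Lamtor4 was 2.10-fold lower (1.74 to 2.55). The sestrin relatives of Sesn2 had ratios of 0.72 (0.671 to 0.773) for Sesn1 and 1.10 (1.02 to 1.18) for Sesn3, and neither passed the rule.

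**Figure D4:**
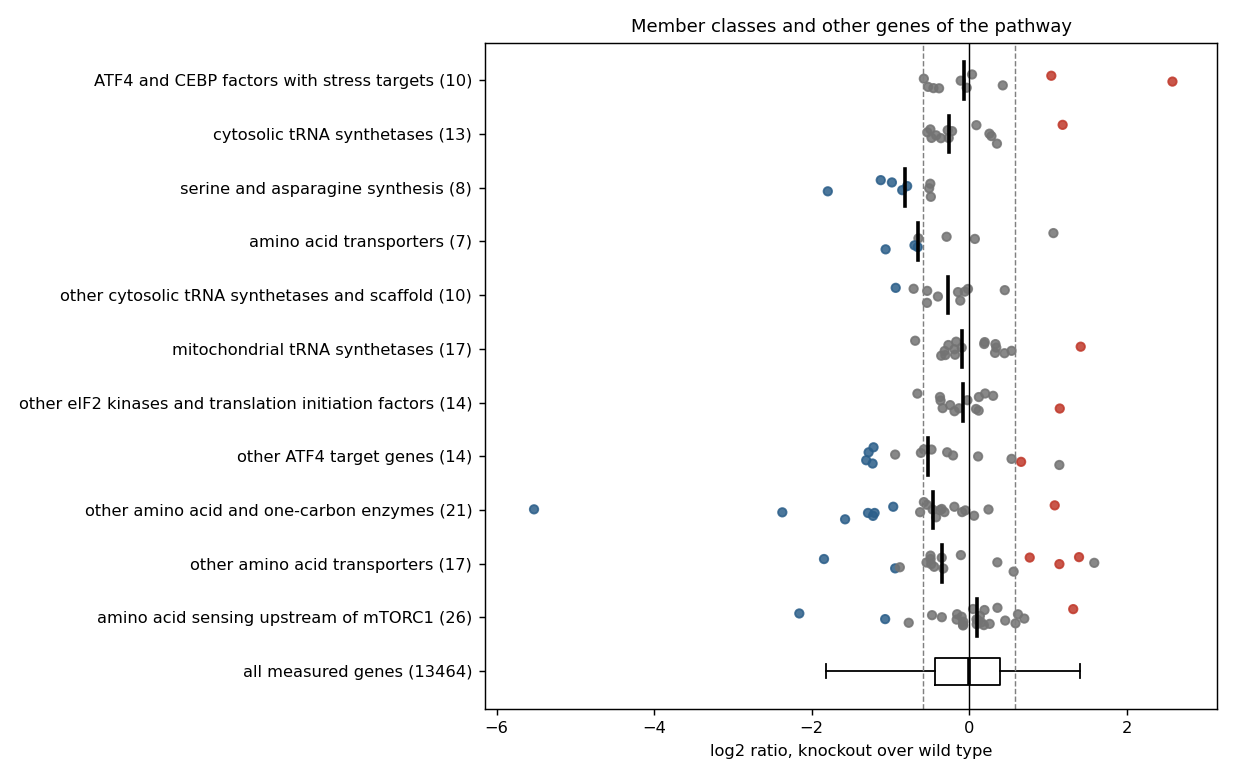
log2 ratio of knockout to wild type for the measured genes of the 4 member classes and of the lists of other pathway genes (points, number in brackets), with black bars at list medians and dashed lines at 1.5-fold either way. Red and blue mark genes called higher and lower, and the box with whiskers gives the quartiles and the 5th to 95th percentiles of all measured genes. Serine and asparagine synthesis, with a median of -0.82, lies lowest, and amino acid sensing upstream of mTORC1, with a median of 0.09, lies highest. The point left of -5 is Gls2, at 0 counts in the knockout library.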

How the data were processed

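Per the file headers, the deposited table of each library gives reads per gene as a count and as FPKM, over 34745 gene rows. Libraries were prepared with a TruSeq kit (RNA Sample Prep v2) that gives no strand, per the labels' protocols. TopHat and HTSeq were used with mm10, per the submitters' processing notes, while tool versions, the annotation and how multiply matching reads were counted are not stated. The deposited counts are whole numbers, and the main ratios, intervals and calls rest on them. The authors' FPKM values differ from the counts between libraries by 1 factor (1.246, the ratio of the totals, in 12916 genes compared), so they were used to compare levels between genes, to draw the members' levels and as 1 alternative, which repeats scaling by totals. The gene lengths they imply were 0.447 to 2.03 times the exon length in GENCODE M21 for the members, which limits such comparisons.

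Libraries were scaled with TMM factors (edgeR 4.0.16, R 4.3.3), and CPM is the count per 1000000 of the scaled size. No model was fitted. Intervals are exact conditional-binomial (Clopper-Pearson, 95%) ranges of the count ratio. Because the reads carry no molecular identifiers, these intervals and the floor of 3 counts cover counting error alone. Before log2 ratios were taken, 0.5 counts were added, scaled to the size of each library. Alternatives were scaling by totals, by DESeq2 1.42.0 size factors and by upper quartile, the deposited FPKM, other filters (none, 5 CPM), a stricter and a milder fold and 2 counts added. The members and lists were chosen with earlier results of these data known. Named genes are all members, at most 3 genes at each end of a pathway list among those called (others called are listed, except 1 that is not reported here), Psmd14, and the most abundant gene of each marker list. Some genes outside this rule were named after their values were seen, for their role next to the members or within a marker list. Exon overlaps and coordinates come from GENCODE M21 (mm10), promoter sequences from RefSeq (GRCm38.p6). Values and figures were made in Python 3.11.15 (matplotlib 3.10.9, pandas 2.3.3, scipy 1.17.1, numpy 2.4.6).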

Additional observations from a re-analysis of the deposited data

How the results depend on the processing

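With 1 library per genotype, neither the spread between mice nor the effect of leaving out a library can be given, and depth limits Slc7a11, Slc1a4, Nupr1, Pycr1 and Atf5, whose intervals held 1. No paired analysis was possible because each genotype has 1 library and the labels give no replicate numbers. The number of members called lower was 8 and fell to 1 (Asns) with intervals wholly beyond 2-fold. It was 17 with a threshold milder than 1.5-fold, since the threshold itself sets how many pass. With 2-fold, Trib3 and Wars remained called higher and Ddit4 did not. The share of all measured genes called was taken at 1.5-fold alone. Whether members were called more or less often than all genes at the other folds therefore cannot be said. Scaling by the upper quartile, which moved log2 ratios by 0.04, left 6 called lower (without Slc1a5 and Slc38a1) and 3 higher. Scaling by totals or DESeq2 size factors, no filter and a filter of 5 CPM left the same 3 and 8 members called. The deposited FPKM repeat scaling by totals, and adding 2 counts enters the log2 ratios but not the calls, so neither is a further check of the calls. The median log2 ratio of the members lay between -0.44 and -0.36 under these scalings, filters and added counts. Of the members tried under the scalings and with 2 counts added, Eif2ak4 was the 1 member whose log2 ratio changed sign (between -0.04 and 0.01).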
